A study of Mus musculus with 6 samples.

Results

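The Gadd45 family has 3 genes in the mouse, Gadd45a, Gadd45b and Gadd45g, and each was read by 1 probe of a CodeLink mouse whole-genome array. They were followed among 18069 genes that had a probe annotated with a single gene symbol. The members were chosen by their link to ING1 and because Gadd45 genes were lower in the mutant cells of these same arrays. Their differences between genotypes are therefore given as a description, and nothing is read from their calls in the fit over all probes. Total RNA came from early-passage mouse embryonic fibroblasts, primary cells grown out of embryos, and each culture was derived from a single embryo and hybridised to its own 1-colour array. The Ing1-deficient cultures, labelled C4, C3 and B1, came from embryos whose Ing1 locus carries a gene-trap cassette, an insertion that interrupts the transcript. Their wild-type littermates gave the cultures labelled H2, H3 and I2. The sources used here do not give treatment, embryo age or strain. The leading letters C and B occur only in deficient cultures and H and I only in wild-type ones.

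GADD45 proteins are small acidic proteins without known enzyme activity that act by binding other proteins. They are induced by DNA damage, growth arrest and inflammatory signals, activate the kinase MAP3K4 upstream of the p38 and JNK stress kinases, and bind PCNA and the mitotic kinase CDK1. Gadd45a is a classical p53 target gene, Gadd45b an early response gene of NF-kB and TGF-beta signalling, and Gadd45g a cytokine-induced gene. GADD45 proteins have also been linked to active DNA demethylation through excision repair, and ING1, which reads a histone mark, has been reported to bring GADD45A to its sites.

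The promoter windows of the members are shown to describe which motifs the 3 genes share and where they differ. They run from 250 bases before to 50 bases after the transcript start, written 5′ to 3′ on the strand of the gene, as RefSeq gives them for build GRCm38.p6. Capitals mark matches, on either strand, to the octamer ATTTGCAT (or ATGCAAAT), the CCAAT box, the GC box GGGCGG (or CCGCCC), the E-box CACGTG and the TATA box TATAAA.
Gadd45a, chr6:67037358-67037657, minus strand: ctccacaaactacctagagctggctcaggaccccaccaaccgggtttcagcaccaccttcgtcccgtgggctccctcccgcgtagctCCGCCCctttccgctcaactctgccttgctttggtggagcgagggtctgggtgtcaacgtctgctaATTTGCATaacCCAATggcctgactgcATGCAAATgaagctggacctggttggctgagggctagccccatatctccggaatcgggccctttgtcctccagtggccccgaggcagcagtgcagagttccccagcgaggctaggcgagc
Gadd45b, chr10:80929841-80930140, plus strand: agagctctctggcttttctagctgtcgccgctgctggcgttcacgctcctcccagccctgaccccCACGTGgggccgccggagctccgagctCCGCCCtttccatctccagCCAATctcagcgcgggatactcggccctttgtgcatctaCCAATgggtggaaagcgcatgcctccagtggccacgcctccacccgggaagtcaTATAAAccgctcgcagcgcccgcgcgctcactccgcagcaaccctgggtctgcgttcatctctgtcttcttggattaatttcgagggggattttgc
Gadd45g, chr13:51846425-51846724, plus strand: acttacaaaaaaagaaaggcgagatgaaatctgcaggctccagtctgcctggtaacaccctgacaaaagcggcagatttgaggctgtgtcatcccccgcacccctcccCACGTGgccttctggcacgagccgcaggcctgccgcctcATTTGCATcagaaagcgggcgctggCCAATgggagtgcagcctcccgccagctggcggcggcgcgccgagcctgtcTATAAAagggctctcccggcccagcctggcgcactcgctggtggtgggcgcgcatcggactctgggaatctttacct

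Gadd45a and Gadd45g held octamer matches and all 3 windows held a CCAAT box. In Gadd45a an octamer began 97 bases before the start and a second one, on the opposite strand, 70 bases before it, with a CCAAT box between them at 86 bases. Among 32851 promoter windows of the same length, 1.74% held the octamer, 0.107% held it 2 or more times, and 37.4% held a CCAAT box. Gadd45g had 1 octamer, 103 bases before its start, with a CCAAT box at 78 bases, a pair of motifs found together in 0.858% of all windows. The Gadd45b window had no octamer but CCAAT boxes at 139 and 100 bases. Gadd45b and Gadd45g also had an E-box, at 185 and 142 bases (7.15% of windows), and a TATA box, at 46 and 27 bases (13.6% of windows), which the Gadd45a window lacked. A GC box lay 163 bases before the Gadd45a start and 158 before that of Gadd45b (35.7% of windows). The CRE motif TGACGTCA (1.79% of windows), the AP-1 motif TGANTCA (7.81%) and the NF-kB consensus (4.51%) had no match in any of the members' windows, and no marked matches overlapped. The windows held 14, 24 and 21 CpG dinucleotides in Gadd45a, Gadd45b and Gadd45g, against a median of 7 over all windows. Fewer were held by 63.7%, 80.0% and 75.2% of all windows, so such counts are not rare. A match describes letters in the window and not bound sites.

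**Figure D1:**
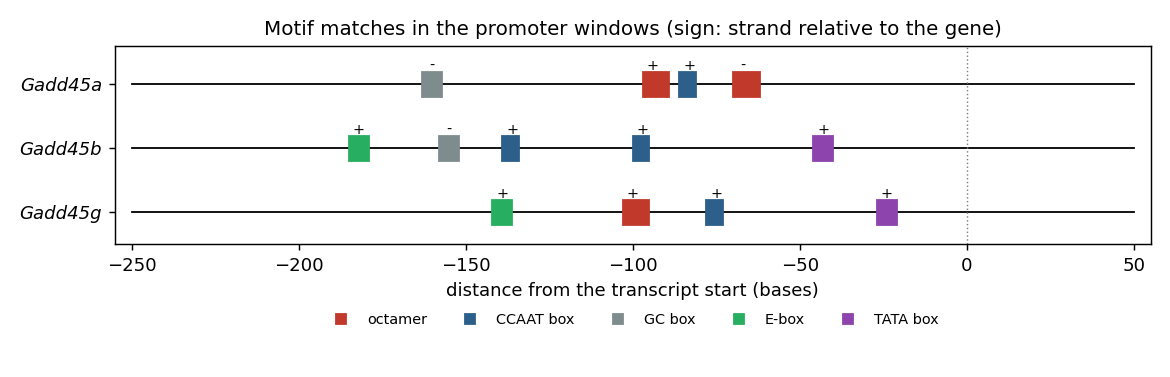
Positions of motif matches in the promoter windows of the Gadd45 genes, in bases from the transcript start (dotted line), with the strand relative to the gene above each box. Octamers stand beside CCAAT boxes in Gadd45a and Gadd45g, while Gadd45b has a pair of CCAAT boxes and no octamer.

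Signals are given as normalized intensity, the background-subtracted brightness of a spot in units of the array's median transcript probe. Brightness of different probes is not comparable, so each gene is compared only with itself. All 18 spots of the members carried a good quality flag. The spots stood 6.25 to 44.5 times above their local background. The targeted gene, Ing1, had 1.38, 0.930 and 1.39 units in C4, C3 and B1 (deficient), against 11.7, 11.4 and 11.1 units in H2, H3 and I2 (wild type). Its log2 difference was -3.23 ± 0.19 (SE, limma adjusted p = 0.000287), so the array separated the genotypes as labelled, although where the probe lies relative to the cassette is not stated.

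Gadd45a, the member with which ING1 has been reported to act, was low in every deficient culture. The deficient cultures had 18.5 (C4), 17.3 (C3) and 25.9 units (B1), and the wild-type cultures had 66.4 (H2), 31.4 (H3) and 51.4 units (I2). The genotypes did not overlap, but the gap was narrow, the lowest wild-type culture H3 standing 1.21-fold above the highest deficient culture B1. The means were 20.6 ± 4.66 units in deficient and 49.7 ± 17.5 units in wild-type cultures (SD, n = 3 each), a log2 difference of -1.23 ± 0.28 (SE).

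Gadd45b, the early response member, had the largest difference of the family. Deficient cells read 9.76 (C4), 13.8 (C3) and 11.5 units (B1), and wild-type cells read 70.9 (H2), 20.8 (H3) and 41.9 units (I2). Every deficient culture lay below every wild-type culture, with H3 1.51-fold above C3. The means were 11.7 ± 2.03 units in deficient and 44.5 ± 25.1 units in wild-type cultures (SD, n = 3 each), a log2 difference of -1.77 ± 0.38 (SE).

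Gadd45g, the cytokine-induced member, overlapped between the genotypes. Its signal in deficient cells was 15.4 (C4), 19.4 (C3) and 22.4 units (B1), and in wild-type cells 31.6 (H2), 17.6 (H3) and 26.4 units (I2). The wild-type culture H3 fell below the deficient cultures C3 and B1, while H2 and I2 lay above all 3 of them. The means were 19.1 ± 3.50 units in deficient and 25.2 ± 7.06 units in wild-type cultures (SD, n = 3 each), and the log2 difference of -0.38 had a standard error of 0.24.

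**Figure D2:**
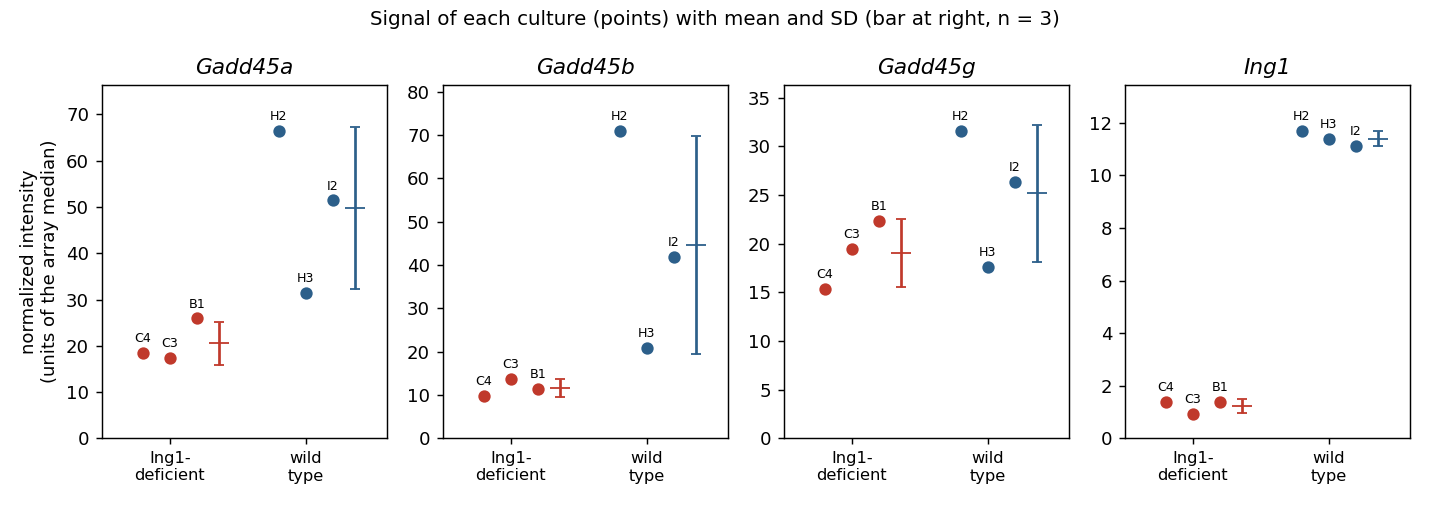
Normalized intensity of each culture (points, labelled) for the Gadd45 genes and Ing1, with the mean and SD of each genotype at the right of its points (n = 3). Gadd45a and Gadd45b are low in all deficient cultures and spread widely among the wild-type ones, Gadd45g overlaps, and Ing1 is level at 11.1 to 11.7 units in wild type.

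By the same fit over all probes, the call at an adjusted p under 0.05 covers Gadd45a and Gadd45b but not Gadd45g, 2 of 3 members, where 6.57% of all 19575 tested probes were called, 4.94% higher and 1.63% lower in deficient cells. Non-overlap with every deficient array below every wild-type array, seen in Gadd45a and Gadd45b, occurred in 11.3% of 19520 tested probes masked on no array. Nothing is read from these counts, since the members were chosen on this contrast. Gadd45b ranked 15 and Gadd45a 91 from the lowest log2 difference among the tested probes, and Gadd45g ranked 2583. In bulk RNA, fewer expressing cells and less RNA per cell cannot be told apart.

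The members varied more among wild-type cultures than among deficient ones. The highest wild-type culture exceeded the lowest by 3.40-fold for Gadd45b, 2.11-fold for Gadd45a and 1.79-fold for Gadd45g. Among the deficient cultures the same ratio was 1.41 for Gadd45b, 1.496 for Gadd45a and 1.45 for Gadd45g. Ing1 itself spanned 1.05-fold over the wild-type cultures. Set against all tested probes, the wild-type SD on the log2 scale lay at percentile 99.2 for Gadd45b (0.89), 94.4 for Gadd45a (0.55) and 88.6 for Gadd45g (0.43). In the deficient cultures the corresponding SDs of 0.25, 0.31 and 0.27 lay at percentiles 64.7, 76.9 and 69.6. The difference in spread was not tested.

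All 3 members ordered the wild-type cultures alike, H2 above I2 above H3. That order held in 32.3% of all tested probes and in 72.8% of the 206 probes with a log2 difference under -1, so it was common among probes that are low in deficient cells. On the log2 scale, H3 lay 0.42 of the way from the deficient mean to the mean of H2 and I2 for Gadd45a and 0.38 of the way for Gadd45b, near the median of 0.51 for those 206 probes. For Gadd45g it lay at -0.16, on the far side of the deficient mean. The deficient cultures were ordered differently by each member, with B1 highest for Gadd45a and Gadd45g and C3 highest for Gadd45b.

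The size of each difference depended on which wild-type culture it was set against. Against H3 alone the deficient mean differed by -0.63 for Gadd45a, -0.85 for Gadd45b and 0.10 for Gadd45g on the log2 scale, and against H2 alone by -1.71, -2.62 and -0.74. Leaving out H2 gave -0.99 for Gadd45a, -1.35 for Gadd45b and -0.19 for Gadd45g. Leaving out H3 gave -1.53, -2.24 and -0.61. For Gadd45g the value moved by more than 1.5 times in these fits and also without C4 (-0.23). Normexp background correction, quantile normalization and cyclic loess gave -1.34 to -1.21 for Gadd45a, -1.87 to -1.66 for Gadd45b and -0.49 to -0.41 for Gadd45g.

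**Figure D3:**
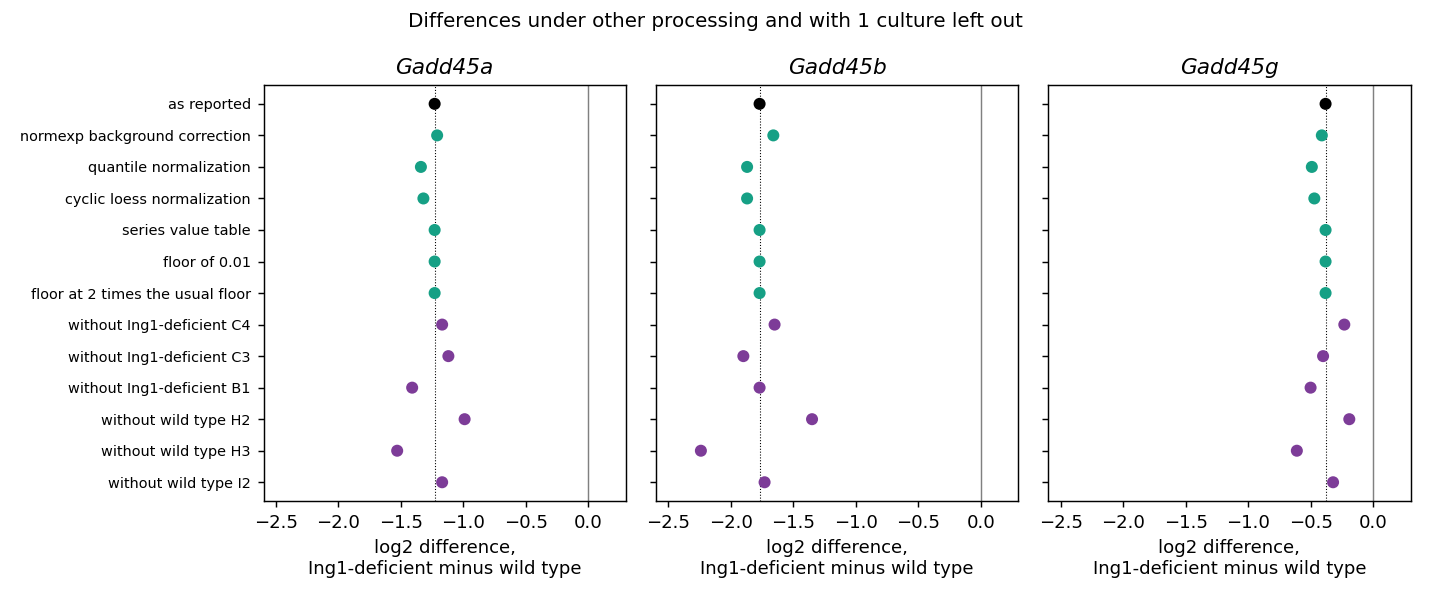
Log2 difference (Ing1-deficient minus wild type) of each Gadd45 gene as reported (black), under other processing (green) and with 1 culture left out (purple). Background correction and normalization move the points less than leaving out H2 or H3 does, but in part more than leaving out another culture. The floors and the series table could not move them. No point crosses 0, which leaving out a culture could not have changed for Gadd45a and Gadd45b, whose genotypes do not overlap.

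The patterns most like each member were sought by Pearson's r of log2 values over the 6 cultures, among 11864 genes. These cultures fall into 2 genotypes, so r describes the genotype difference and the wild-type order together and no p is given. Closest to Gadd45a were the splicing factor gene Rbm39 (r = 0.999) and the zinc finger genes Zbtb10 (0.998) and Zkscan17 (0.998). Rbm39 had 5.23, 4.81 and 6.46 units in C4, C3 and B1, against 13.5, 7.54 and 11.1 units in H2, H3 and I2. Its highest cultures were again H2 and I2, with H3 between them and the deficient cultures. Most opposite to Gadd45a were the glycolytic gene Aldoc (-0.998), the transporter gene Slc35a1 (-0.995) and Zfp597 (-0.995).

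Closest to Gadd45b were Eml2 (0.997), the repressor gene Klf3 (0.996) and Igsf8 (0.995). Klf3 had 4.16, 6.77 and 5.36 units in C4, C3 and B1, against 45.2, 11.7 and 30.6 units in H2, H3 and I2, the same order of all 6 cultures as Gadd45b. Most opposite were Dgcr2 (-0.999), the sphingosine kinase gene Sphk2 (-0.999) and Ppp2r3a (-0.998). Gadd45g was followed most closely by 1700060C20Rik (0.997), Btnl1 (0.990) and the autophagy gene Map1lc3a (0.988). Most opposite to Gadd45g were the transcription factor gene Ebf1 (-0.996), the acetyltransferase gene Crebbp (-0.994) and Wdr53 (-0.993). Within the family, Gadd45b ranked 202 in likeness to Gadd45a (0.949) and Gadd45g ranked 873 (0.856), and r between Gadd45b and Gadd45g was 0.848.

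Genes of the pathways around GADD45 were next counted in 6 lists with the fit over all probes. The lists hold 102 genes, of which 91 had a probe of a single symbol and 78 were bright enough to be tested. Trp53, Nfkb1 and the octamer factor gene Pou2f1 were not analysed here. Of 78 tested genes in these lists 3 rose, 2 fell and 73 did not pass, which is 6.41% called, where 6.57% of all tested probes were called. Without C4, B1, H2 or I2 limma called 0 of them, with 25, 22, 18 and 19 at an unadjusted p under 0.05. Of 19575 tested probes (19572 without B1), 4425, 4113, 3662 and 3602 were under that limit in the same fits. Without C3 limma called 1 of the list genes, and without H3 it called 16. Each of the 5 called genes passed in 1 of 6 fits with a culture left out. Over the other limma settings with all cultures, Ddit3 passed in 7 of 11 and Rxra in 6 of 10. Nfyc and Sesn3 passed in 5 of 11 each and Ercc4 in 4 of 10, so these last 3 lost their call in most settings. The settings include the identical series table, array weights (8160 probes called) and the leading letter as a random block (12903 called). A pass in any of those says little. Rxra and Ercc4 were not in the fit that required good flags on all 6 arrays. The median log2 difference of the 78 genes was 0.11, against 0.02 over all tested probes.

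The kinase cascade that GADD45 proteins feed held no call. Limma called 0 of 15 tested genes of the p38 and JNK cascade, with 6 at an unadjusted p under 0.05. Of all 19575 tested probes, 5137 were under that limit in the same fit. The methods' t-test called 0 genes of the cascade after adjustment and 4 before it. The list median was 0.09. Map3k4, the kinase bound directly by GADD45 proteins, had 4.58 units in deficient and 4.97 units in wild-type cultures (-0.12, adjusted p = 0.732 in limma), and was named after its value was seen. The lowest p-values were those of the p38 substrate kinase gene Mapkapk2 (-0.61 ± 0.17, adjusted p = 0.0690) and the JNK gene Mapk8 (0.60 ± 0.18, adjusted p = 0.0756).

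Among 8 tested genes of binding partners, 1 fell and 7 did not pass, with a median of 0.17. The gene that fell was Rxra, a nuclear receptor partner. Its flag was good on 2 of 3 deficient arrays and on all 3 wild-type ones. Rxra was thus tested only through wild type, where it is high, which limits what its call can show. It had 2.99, 2.31 and 2.34 units in C4, C3 and B1, against 11.3, 4.25 and 8.48 units in H2, H3 and I2, with no overlap and the same wild-type order as the Gadd45 genes. Its log2 difference was -1.55 ± 0.32 (limma adjusted p = 0.0324), and a second Rxra probe gave -1.46 (adjusted p = 0.0361). The partners named in the background did not pass: Pcna, the replication clamp, differed by 0.66 (adjusted p = 0.0823 in limma) and Cdk1 by 0.28 (adjusted p = 0.344). Cdkn1a, the p21 inhibitor that also binds GADD45 proteins, differed by -0.57 (adjusted p = 0.146). These 3 were named after their values were seen.

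In the demethylation and excision repair list, 1 of 12 tested genes rose, 0 fell, and the median was -0.01. Ercc4, a subunit of the repair nuclease that cuts on the 5′ side of a lesion, had 3.73, 2.20 and 2.61 units in C4, C3 and B1, against 1.10, 1.53 and 1.71 units in H2, H3 and I2 (0.96 ± 0.24, adjusted p = 0.0473 in limma). Ercc5, the repair nuclease linked to GADD45A in demethylation, had 1.61 units in deficient and 2.16 units in wild-type cultures (-0.44, limma adjusted p = 0.224). Tet2, a methylcytosine oxidase, had 4.52 and 4.51 units (adjusted p = 0.940). Ercc5 and Tet2 were both named after their values were seen.

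Of 15 tested transcription factors known to act on Gadd45 genes, 1 rose, 1 fell and 13 did not pass, with a median of 0.17. Nfyc, a subunit of the factor that binds CCAAT boxes, had 3.58, 2.17 and 2.58 units in C4, C3 and B1, against 1.18, 1.68 and 1.38 units in H2, H3 and I2 (0.96 ± 0.22, adjusted p = 0.0388 in limma). The other subunits of that factor, Nfya (-0.32, adjusted p = 0.397) and Nfyb (-0.21, adjusted p = 0.505), did not pass and were named after their values were seen. Ddit3, a stress-induced factor of the unfolded protein response that is also known as Gadd153, fell. It had 21.0, 22.5 and 26.3 units in C4, C3 and B1, against 99.97, 35.2 and 85.7 units in H2, H3 and I2. The genotypes did not overlap, H2 was highest and H3 lowest in wild type as for the Gadd45 genes, and the log2 difference was -1.53 ± 0.35 (adjusted p = 0.0377).

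Of 17 growth arrest and stress-induced genes, which include Ddit3, 1 rose, 1 fell and 15 did not pass, with a median of 0.05. Sesn3, a stress-induced sestrin, had 16.4, 10.8 and 10.6 units in C4, C3 and B1, against 2.64, 7.06 and 4.29 units in H2, H3 and I2 (1.51 ± 0.33, adjusted p = 0.0361 in limma), while a second Sesn3 probe gave 0.01 (adjusted p = 0.981). Ppp1r15a, also known as Gadd34, had 10.4 units in deficient and 13.9 units in wild-type cultures (-0.37, adjusted p = 0.453) and was named after its value was seen. Limma called 0 of 21 immediate early genes, with 6 at an unadjusted p under 0.05, where 5137 of all 19575 tested probes were under that limit. The methods' t-test called 0 after adjustment and 2 before it. Their median was 0.19. The lowest p-values there were those of Egr2 (2.11 ± 0.58, limma adjusted p = 0.0641) and Myc (1.12 ± 0.33, adjusted p = 0.0723), both growth-induced factor genes. Egr2 had good flags on all 3 deficient arrays and on 2 of 3 wild-type ones. It was thus tested only through deficient cells, where it is high, which limits what its difference can show. Its I2 value of 0.364 units was raised to the floor of 0.57, and the other limma fits gave differences from 0.99 to 2.84.

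**Figure D4:**
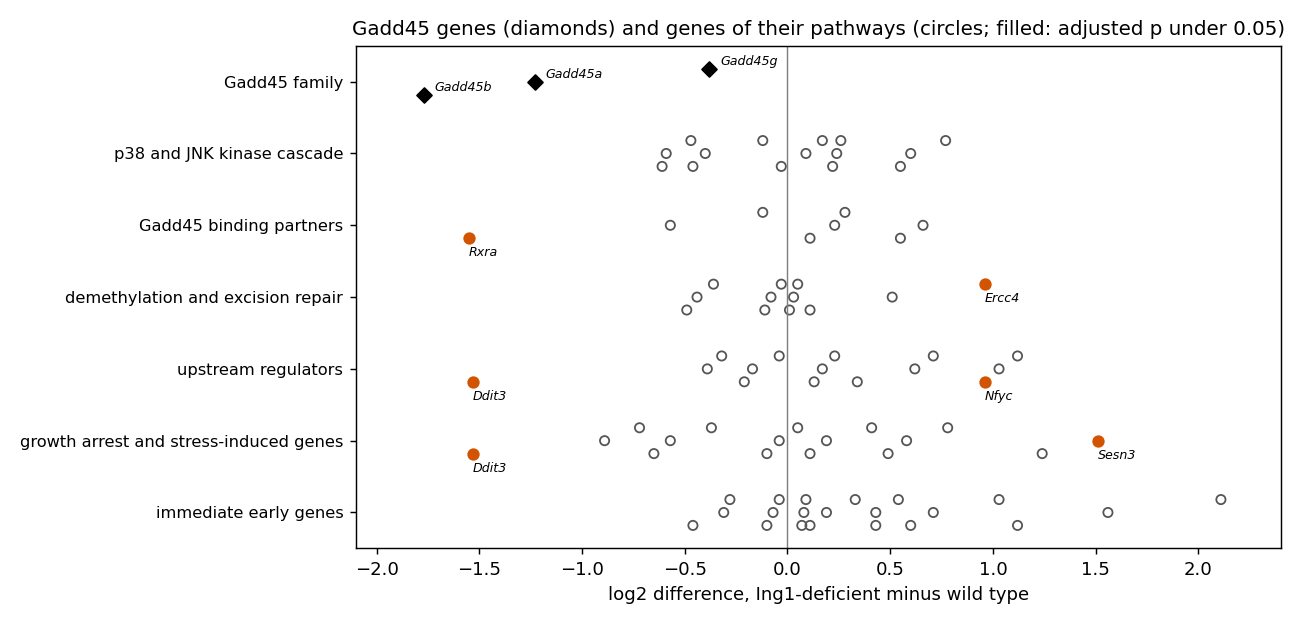
Log2 difference (Ing1-deficient minus wild type) of the Gadd45 genes (diamonds, as a description) and of each tested gene of 6 pathway lists (circles, filled where the limma adjusted p was under 0.05). The called genes are Rxra and Ddit3 below 0 and Ercc4, Nfyc and Sesn3 above it, and the remaining genes lie on either side of 0.

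All 13 fibroblast markers had good flags on all 6 arrays. So did 8 of 13 macrophage, 3 of 6 epithelial and 1 of 7 endothelial markers, so good flags alone do not set fibroblasts apart. The fibroblast markers had a summed signal of 892 to 943 units in deficient and 799 to 907 units in wild-type cultures. Of the 13, 2 were called higher in deficient cells, where 4.94% of all tested probes were called higher. Some macrophage and proliferation markers were also called higher in deficient cells, to be set beside that same 4.94%. These lists are small and were not tested as sets. Macrophage markers, 13 of 15 measured, summed to 56.9 to 173 units in deficient and 26.7 to 61.5 units in wild-type cultures, ranges that overlap at C4 and H2. Of these markers 3 of 10 tested were called higher, and Ptprc was below background on every array. Proliferation markers, 10 of 12 measured, summed to 154 to 242 units in deficient and 138 to 152 units in wild-type cultures, with 3 of 9 tested called higher. Endothelial markers (7 of 7 measured) summed to 5.15 to 6.56 units in deficient and 4.13 to 4.59 units in wild-type cultures, with Cdh5 and Pecam1 below background throughout, and epithelial markers (6 of 7) to 4.84 to 7.56 and 5.36 to 7.15 units. The part of any of these marker differences in the Gadd45 differences was not tested.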

How the data were processed

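Per the labels, biotin-labelled RNA was hybridised to CodeLink arrays, which the authors scanned with a GenePix scanner. Per the file headers, the software that quantified the spots was CodeLink Expression Analysis 4.1.0.29054. The deposited normalized intensity equals background-subtracted spot brightness (mean minus the local median) in units of its array's median over unmasked transcript probes, as worked out from the values. Intensity in the deposited series table was identical (217362 of 217362 values). A spot-to-noise score in the authors' scanner tables was used only as a description. No source used here gives a genome build.

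Each array has 34967 transcript probes, of which 55.5% to 62.1% had a good flag and 105 to 177 were masked and treated as missing. Precision is limited by having 3 arrays in each genotype. Values under 0.57 were set to 0.57, the median over arrays of percentile 1 among good probes, before log2. A probe was tested if its flag was good on every array of 1 or both genotypes (19575 probes), by a two-sided moderated test in limma 3.58.1 (R 4.3.3) and Benjamini-Hochberg adjustment over all of them, threshold 0.05. The fit was tested on simulated data. Symbols come from the platform annotation, updated by gene ID through RefSeq (21487 of 21615 probes with 1 symbol), and a list gene is represented by its brightest tested probe.

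The members and lists were chosen with earlier results of these data known. Named by rule were the members, Ing1, up to 5 called genes per list (or the 2 with the lowest p), and the 3 genes most like and most opposite to each member. Lists were described by counts and medians and not tested as sets. The methods' t-test means the Student test in the labels.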

Additional observations from a re-analysis of the deposited data

How the results depend on the processing

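The differences of Gadd45a, Gadd45b and Gadd45g kept their sign under normexp, quantile normalization and cyclic loess and with each of the 6 cultures left out. For Gadd45a and Gadd45b, leaving out a culture could not change the sign, since their genotypes do not overlap. Under normexp, quantile normalization and cyclic loess the differences moved by less than the SD between replicates (0.45, 0.65 and 0.36 on the log2 scale). Leaving out 1 of 3 cultures cannot move a difference by more than that SD, so it is no yardstick for those fits. The other floors and the series table could not change the differences, since every member value lies above the floors and the table holds the same values. The counts of calls did not hold in this way, and the cause was not tested. In place of 1286 probes and 5 pathway genes, limma called 576 and 0 with normexp background correction, 738 and 2 with quantile normalization, 750 and 2 with cyclic loess, 275 and 0 with a floor of 0.01, 191 and 1 with a floor of 1.14, and 20 and 0 with no filter on flags. A variance trend with robust fitting gave 8 pathway genes, and array weights gave 8160 probes and 43 pathway genes. The leading letter as a random block, with an estimated correlation of -0.886, gave 12903 and 51. Each letter occurs in only 1 genotype, so nothing is read from that block fit. The methods' t-test with its ratio limits gave 606 and 3, and 7 and 0 after adjustment. With a culture left out the counts ran from 5 probes (without B1) to 2725 (without H3) and from 0 to 16 pathway genes. At an unadjusted p under 0.05 limma gave 17 to 28 pathway genes in the settings that called 0, normexp, the floor of 0.01, no filter and the fits without C4, B1, H2 or I2. Over all probes, 3602 to 4891 were under that limit in those settings, of 19572 to 19575 tested, or 34861 with no filter. Of the called probes 75.2% were higher in deficient cells, against 60.7% after quantile normalization and 65.6% after cyclic loess, where the 2 pathway genes called were both lower. No paired analysis was possible because the genotypes share only 1 replicate number.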
